A study of Mus musculus with 9 samples.

Results

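C2C12 cells that had received no knockdown of macroH2A1 were profiled at day 4 of differentiation in 3 of the 9 samples of the series, and these 3 control samples are described here. They were chosen by their label alone, and no measured value entered the choice. C2C12 is a mouse myoblast line that fuses into multinucleated myotubes when serum is withdrawn. The labels call the controls Wild Type, the study's figures call them si Ctrl, and the methods list a scrambled control siRNA. The treatment text, which is the same for all 9 samples, names transfection with 10 nM siRNA, so whether the controls received the scrambled one is not settled by their own labels. The other 6 samples are the same line at the same day with siRNA against a splice isoform of macroH2A1: in 3 of them si mH2A1.1 was used and in the other 3 si mH2A1.2. The line is a single immortal lineage, and RNA came from whole cultures, so myotubes and unfused cells were measured together, and fewer cells of a type and less RNA per cell cannot be told apart.

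During myogenic differentiation, myoblasts leave the cell cycle, switch on myogenin and other muscle factors, fuse, and build sarcomeres from actin, myosin and their regulators. Many of these proteins come in families of paralogs, with embryonic, fast, slow and cardiac members that replace each other during development and between fibre types. Cultures of C2C12 also keep a share of undifferentiated mononucleated cells, called reserve cells, which resemble the quiescent satellite cells of muscle.

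The control samples held 36924252, 37441294 and 40289926 counts, within the range of all 9 samples up to 42223108. At this depth 3 counts, used here as the floor, correspond to between 0.0745 and 0.0812 CPM, the counts scaled to 1000000 per library. Of 52780 genes listed, 13660 (25.9%) reached 1 CPM in all 3 samples, 27895 had at most 3 counts in each, and 19584 had none. The 811 most abundant genes held 50% of all counts. Protein-coding genes took 93.1% of counts, long intergenic noncoding RNAs 1.79% and pseudogenes 4.22%. Levels of different genes are compared per kilobase of merged exons, scaled to the same sum in each sample (TPM), and levels of the same gene between samples in CPM.

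Genes of the contractile apparatus and of the matrix were both among the most abundant of these cultures. Ttn, which encodes the giant spring protein titin, had 10080, 6005 and 10051 CPM. Myh3, the embryonic myosin heavy chain, had 7146, 5226 and 7764 CPM. Both were lowest in replicate 2. Fn1, the matrix protein fibronectin, had 8366, 10578 and 8124 CPM, and here replicate 2 was highest. Col3a1, a fibrillar collagen chain, had 7787, 8750 and 9011 CPM. H19, an imprinted noncoding RNA, had 6340, 6841 and 9942 CPM and stood highest in replicate 3. The 5 markers were all among the 10 genes of highest CPM, beside mt-Co1, mt-Cytb, mt-Co2, Eef1a1 and the mitochondrial pseudogene Gm29216. Per kilobase the order was different, since titin's transcript model is 116825 bases long. Ttn stood at 204 ± 53.1 TPM (SD, n = 3), against 3040 ± 561 for Myh3, 2124 ± 347 for Fn1, 2383 ± 173 for Col3a1 and 8591 ± 2054 for H19. In GRCm38 their gene models span chr2:76703980-76982547 (Ttn, minus strand), chr11:67078300-67102291 (Myh3, plus), chr1:71585520-71653200 (Fn1, minus), chr1:45311538-45349706 (Col3a1, plus) and chr7:142575529-142578143 (H19, minus). Of the 134 listed muscle genes 115 reached 1 CPM, together 6.31%, 5.51% and 7.49% of counts.

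**Figure D1:**
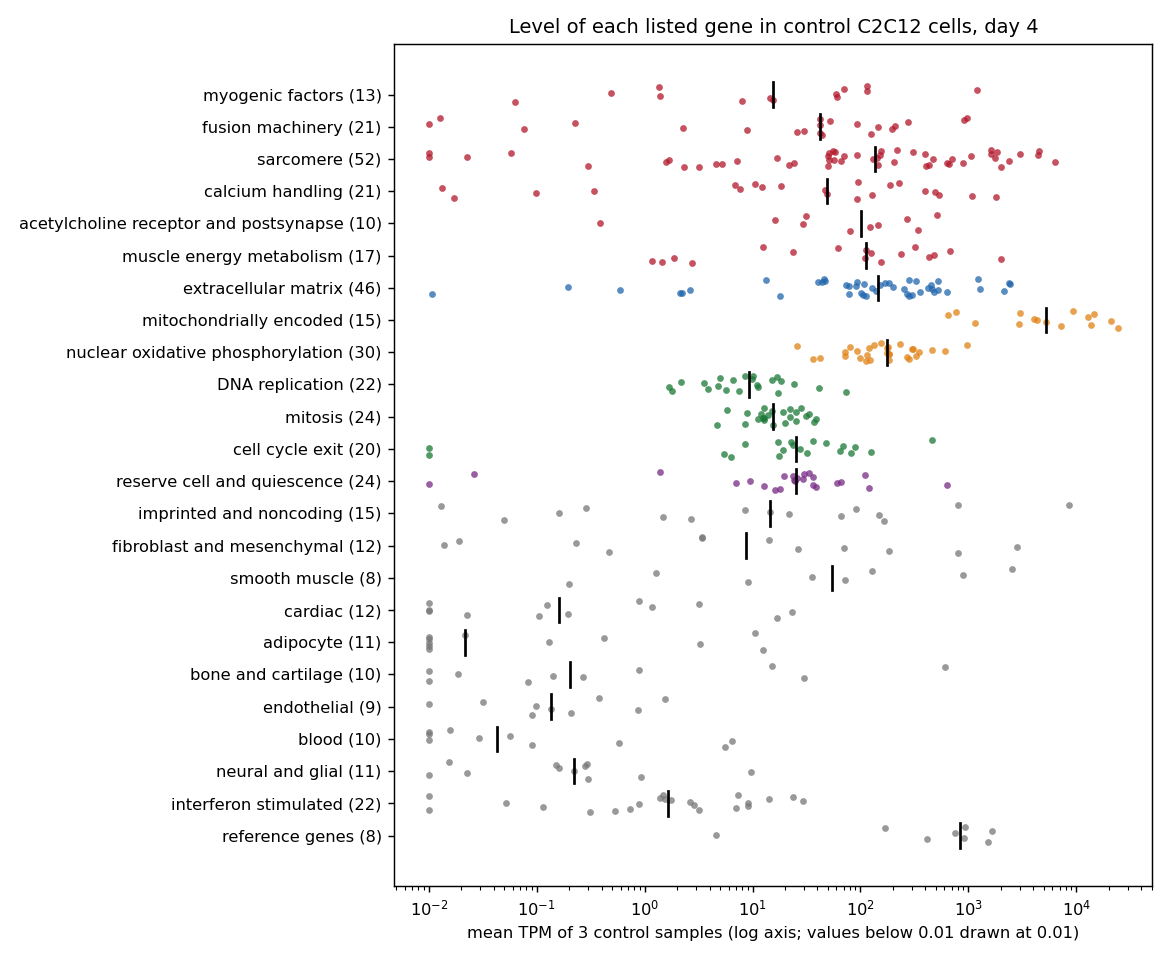
Mean TPM of every gene of 24 lists in the 3 control samples, on a log axis, with the number of listed genes in brackets and the list median as a black bar. Mitochondrially encoded genes lie highest, muscle and matrix genes spread up to Acta1 at 6395 TPM, and the cardiac, fat, bone, endothelial, blood and neural lists have medians below 1 TPM.

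Myog led the myogenic factors. This basic helix-loop-helix factor drives terminal differentiation and had 631, 629 and 717 CPM. On the per-kilobase scale it took 86.8% ± 1.83 of the 4 myogenic regulatory factors. Myod1, the determination factor, followed with 8.21% ± 1.27, at 87.1, 61.1 and 85.2 CPM. Myf5 took 4.39% ± 0.892 and Myf6 0.576% ± 0.109, so the factor of mature fibres was the lowest of the 4. Of 13 listed factors 10 reached 1 CPM. Mef2d had the highest per-kilobase level of the MEF2 family (60.3% ± 3.13), although Mef2a had the most reads, and with each other gene length tried Mef2a led. Pax7, which marks satellite cells, stood at 2.99 ± 0.728 CPM and Pax3 at 0.142 ± 0.0714 CPM.

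Fusion genes were on. Mymk, whose product myomaker is needed for the merging of membranes, had 476, 505 and 636 CPM, or 979 ± 141 TPM. Mymx, encoding its small partner protein, had 55.5, 79.3 and 85.4 CPM (196 ± 41.5 TPM). Replicate 1 was lowest for both genes. Cdh15, the muscle cadherin, went the other way, with 448 CPM in replicate 1 against 245 and 289 CPM. Itgb1, the beta-1 integrin subunit, was at 913 ± 61.6 TPM and Ncam1, a neural cell adhesion molecule of regenerating muscle, at 210.4 ± 28.6 TPM. Of the 21 listed fusion genes 17 reached 1 CPM, and 2 (Adgrb1 and Nphs1) had at most 3 counts in each sample.

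Sarcomere genes together held 4.33%, 3.71% and 5.18% of all counts. Of 52 listed genes 46 reached 1 CPM. Acta1, the skeletal alpha-actin, was highest per kilobase with 6395 ± 1327 TPM, and its level was 2773, 3652 and 4311 CPM. Mylpf, the fast regulatory light chain, stood at 4515 ± 671 TPM and Actc1, the cardiac alpha-actin that is also made in developing skeletal muscle, at 4469 ± 1077 TPM. The ranges of Mylpf and Actc1 overlapped, and they cannot be ordered. At the other end, Myl3, Myl7, Mybpc3 and Myoz3 had at most 3 counts in each sample. Myl7 and Mybpc3 belong to heart muscle, Myl3 to heart and slow fibres, and Myoz3 to fast fibres. Tcap, which caps titin at the Z-disc, reached 50.4 ± 27.1 TPM with 10.6, 13.3 and 28.5 CPM, a wide spread for a gene of that level.

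Among 10 striated myosin heavy chains the embryonic chain held most of the signal. Myh3 took 87.1%, 90.6% and 87.0% of the per-kilobase sum. Myh1, a fast adult chain, came next with 7.19%, 4.36% and 6.65%. The perinatal chain Myh8 took 1.99% ± 0.449 and the slow chain Myh7 1.69% ± 0.354, and these did not differ beyond their spread. The adult fast chains Myh4 and Myh2 took 0.626% ± 0.0812 and 0.199% ± 0.0691. Myh15 had at most 1 count in a sample, so Myh3 stood at least 89178-fold above the level that 3 counts would give for Myh15. Of the 50-base windows in Myh3 transcripts, 4.76% also occur in another gene, against 30.5% for Myh1, 24.6% for Myh2 and 18.9% for Myh4, so their levels are less certain. Myh6 (20.2%) and Myh7 (20.0%) share windows mostly with each other. Myosin of nonmuscle cells was led by Myh9 with 93.3% ± 0.148.

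Some of these genes carry a microRNA within their bounds. Those of Myh6, Myh7 and Myh7b are shown because these slow and cardiac chains were present at low levels, and those of H19 because it is one of the 5 markers. Capitals mark the seed, bases 2 to 8, and sequences and positions are those of RefSeq on GRCm38.p6.
mmu-miR-208a-3p: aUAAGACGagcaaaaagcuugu
mmu-miR-208b-3p: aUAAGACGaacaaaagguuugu
mmu-miR-499-5p: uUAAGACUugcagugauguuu
mmu-miR-675-3p: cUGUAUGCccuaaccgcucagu
mmu-miR-675-5p: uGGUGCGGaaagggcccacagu
The first lies within Myh6 (chr14:54949072-54949093, minus strand), the second within Myh7 (chr14:54975710-54975731, minus strand), the third within Myh7b (chr2:155622893-155622913, plus strand), and the arms of miR-675 within H19 (chr7:142577078-142577099 and chr7:142577112-142577133, minus strand). The seed of miR-208a-3p is the same as that of miR-208b-3p, and the seed of miR-499-5p differs from it only at base 8. The hosts had 36.7, 29.2 and 58.0 CPM for Myh6, 157, 137 and 261 CPM for Myh7, and 53.0, 44.7 and 78.7 CPM for Myh7b. All 3 hosts were highest in replicate 3, and mature microRNAs were not measured in these libraries of polyadenylated RNA.

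Other sarcomere families mixed fast, slow and cardiac members. Troponin C was split between Tnnc1, the slow and cardiac form, with 59.6%, 63.2% and 57.4%, and Tnnc2, the fast form, with the rest. Tnnc2 shares 47.9% of its windows, mostly with the overlapping gene Ube2c. Within troponin T the fast gene Tnnt3 held 67.9% ± 2.11 of the per-kilobase sum, ahead of Tnnt2 (cardiac and embryonic) and Tnnt1 (slow). Among the troponin I genes the fast Tnni2 held 62.7% ± 2.89 and the slow Tnni1 37.1% ± 2.87, while cardiac Tnni3 held 0.187% ± 0.0187. In both of these families the order rests on the gene length: with coding length or without any length, Tnnt2 and Tnni1 led. Myl1, the fast essential light chain, took 56.1% ± 3.77 of its family and Tpm2 58.6% ± 5.93 of the tropomyosins. The nonmuscle tropomyosin Tpm4 took 25.6%, 24.3% and 15.0%, lowest in replicate 3. Within the actins, Acta1 held 36.7% ± 2.31 and Actc1 25.5% ± 2.59, and the nonmuscle gene Actg1 had 17.6%, 14.6% and 9.59%. In Actg1 37.4% of the 50-base windows also occur in another gene.

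Calcium handling genes mixed forms of different muscle types. The pump was mostly the fast form and the release channel the skeletal form, while calsequestrin was mostly the cardiac and slow form. Atp2a1, the calcium pump of fast fibres, had 2153, 1836 and 2818 CPM and held 81.4% ± 2.43 of its family, ahead of Atp2a2 with 18.1% ± 2.14. Ryr1, the skeletal calcium release channel, held 83.6% ± 0.470, Ryr3 16.3% ± 0.471 and cardiac Ryr2 0.0957% ± 0.0603. Calsequestrin, the calcium store protein, was mostly Casq2, the cardiac and slow form, with 86.2%, 82.8% and 86.1%. Of the small pump regulators, Mrln (myoregulin) stood at 6.89 ± 2.29 TPM and Pln (phospholamban, with 56.2% of windows shared) at 0.341 ± 0.0693 TPM, while Sln (sarcolipin) had at most 1 count in a sample. Their levels are low next to the 1789 ± 368 TPM of the pump gene Atp2a1. Pvalb, the calcium buffer of fast adult fibres, reached 2.89 ± 1.09 CPM.

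The muscle acetylcholine receptor was of the fetal type. Chrng, the fetal gamma subunit, had 581, 415 and 572 CPM. Chrne, the epsilon subunit that replaces it at mature synapses, had 0.217, 0.107 and 0.397 CPM. Per kilobase Chrng took 99.9%, 99.9% and 99.8% of the pair and stood 887-fold above Chrne. The other subunits followed with Chrna1 at 510.2 ± 84.6 TPM, Chrnd at 270.4 ± 45.0 TPM and Chrnb1 at 145 ± 32.7 TPM. Musk, the kinase that organises the synapse, was at 31.2 ± 6.99 TPM and Rapsn, which clusters receptors, at 123 ± 22.9 TPM.

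The promoters of this pair and of Myh3 are shown because the pair gives so large a ratio between paralogs. Each covers 250 bases before to 50 after the RefSeq start on GRCm38.p6, written along the gene's strand, and capitals mark CAGCTG (an E-box bound by myogenic factors), CCGGAA (the N-box core known from synaptic genes) and TATAAA, each searched on both strands.
Chrng: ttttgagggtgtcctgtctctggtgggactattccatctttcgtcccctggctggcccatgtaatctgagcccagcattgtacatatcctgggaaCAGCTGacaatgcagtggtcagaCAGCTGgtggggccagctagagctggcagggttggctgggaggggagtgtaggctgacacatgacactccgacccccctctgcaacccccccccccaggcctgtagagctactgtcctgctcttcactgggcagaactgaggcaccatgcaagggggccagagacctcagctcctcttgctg
Chrne: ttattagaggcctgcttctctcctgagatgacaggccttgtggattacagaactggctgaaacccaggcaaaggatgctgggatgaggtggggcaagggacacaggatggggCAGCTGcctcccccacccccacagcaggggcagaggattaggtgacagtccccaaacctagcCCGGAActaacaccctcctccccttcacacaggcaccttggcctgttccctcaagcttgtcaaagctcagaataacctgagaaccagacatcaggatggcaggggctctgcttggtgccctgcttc
Myh3: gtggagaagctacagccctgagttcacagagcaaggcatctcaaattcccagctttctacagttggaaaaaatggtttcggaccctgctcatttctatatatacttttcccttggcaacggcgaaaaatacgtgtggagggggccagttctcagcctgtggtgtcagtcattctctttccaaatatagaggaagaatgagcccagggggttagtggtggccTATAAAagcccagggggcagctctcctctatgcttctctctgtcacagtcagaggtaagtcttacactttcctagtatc
They lie at chr1:87205561-87205860 (plus strand), chr11:70619145-70619444 (minus strand) and chr11:67078050-67078349 (plus strand). The gene model counted for Chrng begins upstream of this window, at 87204657. Chrng has 2 CAGCTG boxes, 155 and 132 bases before its start, and no CCGGAA. Chrne has 1 CAGCTG box at 138 bases and 1 CCGGAA at 76 bases before its start. Myh3 has neither in this window, and its TATAAA begins 29 bases before the start. CAGCTG is found in 16.1% of the 27025 promoters of this length, CCGGAA in 15.2% and TATAAA in 14.2%. Of the 94 muscle-list genes with a promoter in the table, 33 (35.1%) hold CAGCTG, including 14 of 40 sarcomere genes and 4 of 7 receptor and synapse genes. The share was uneven among the muscle lists, with 7 of 14 energy genes, 6 of 13 calcium handling genes, 2 of 11 fusion genes and 0 of 9 myogenic factors. Among other lists it is found in 4 of 9 adipocyte genes, 3 of 7 bone and cartilage genes, 4 of 31 matrix genes and 3 of 20 mitosis genes. A match is a description of these letters and not a site of binding.

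**Figure D2:**
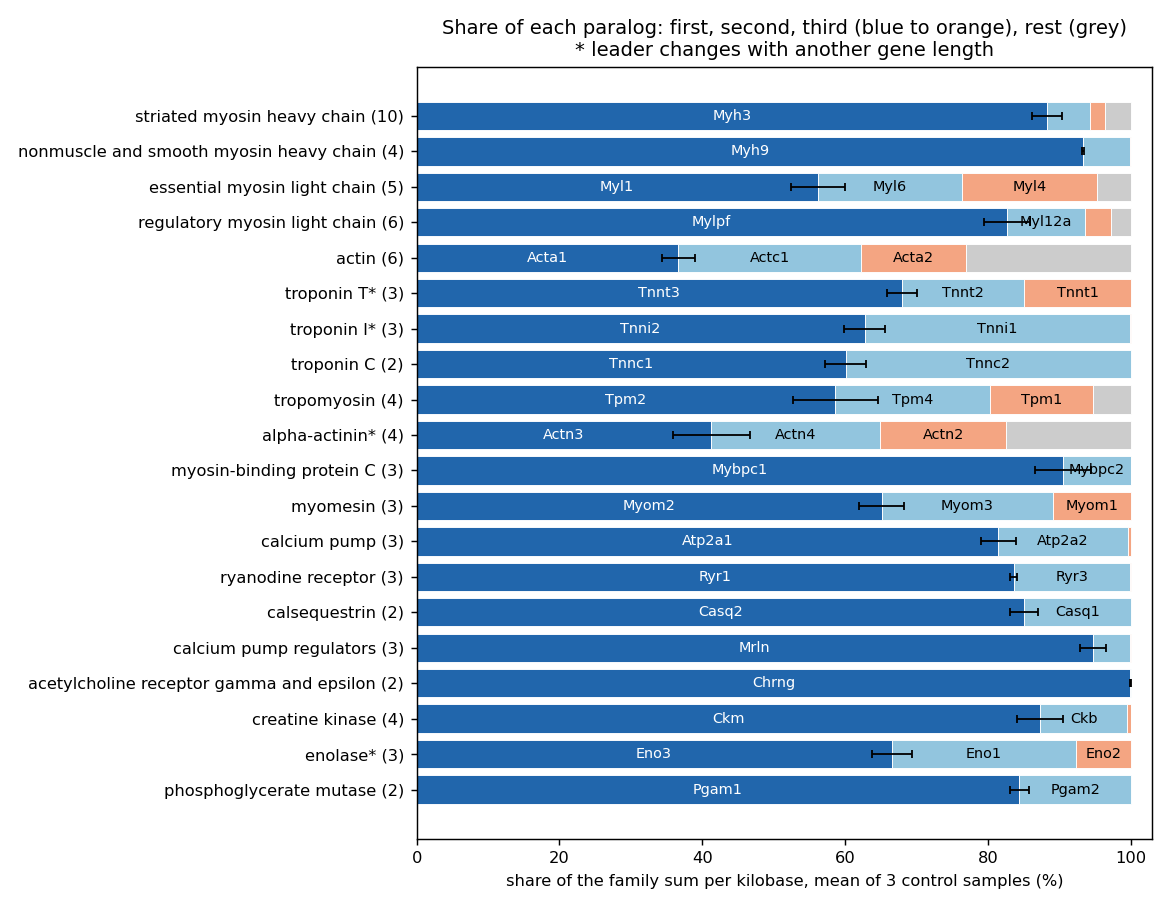
Share of each paralog in the per-kilobase sum of 20 muscle and metabolic families, as the mean of the 3 control samples with the SD of the leading share as a bar (number of genes in brackets). Chrng, Myh3, Mrln, Myh9 and Mybpc1 fill most of their families, while troponins, alpha-actinins and actins are split, and an asterisk marks families whose leader changes with another gene length.

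Over 47 paralog families, the leading gene held 90% or more of the per-kilobase sum in 11, between 50% and 90% in 33, and less than 50% in 3 (actins, alpha-actinins and the Id genes). The SD of the leading share between replicates had a median of 2.80 percentage points and reached at most 5.93, for Tpm2. The leader was the same gene under every gene length tried in 40 families. Energy metabolism showed both patterns. Aldoa held 99.6% ± 0.101 of the aldolases, Ldha 98.9% ± 0.337 of the lactate dehydrogenases and Slc2a1 96.7% ± 0.831 of 3 glucose transporters, with the insulin-responsive Slc2a4 at 2.19% ± 0.555. Ckm, the muscle creatine kinase, held 87.3% ± 3.18, Pfkm 77.5% ± 5.88 and the muscle phosphorylase Pygm 80.3% ± 5.69. Hk1 and Hk2 stood at 53.9% ± 4.05 and 46.1% ± 4.05, within their spread, and Hk3 had no count. In contrast, the phosphoglycerate mutase was mostly the ubiquitous Pgam1 (84.4% ± 1.31). The muscle isoforms of cytochrome oxidase subunits were the minor ones, with 37.5% ± 3.82 for Cox6a2, 21.2% ± 2.18 for Cox8b and 5.10% ± 0.874 for Cox7a1. Elongation factor 1 alpha was Eef1a1, with at most 3 counts of Eef1a2, the form known from adult muscle and neurons. In Eef1a1, 40.4% of windows also occur elsewhere, mostly in pseudogenes.

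Matrix genes held 4.29%, 5.06% and 4.53% of counts, a range that overlapped that of the sarcomere genes. Of 46 listed genes 44 reached 1 CPM. Sparc, a collagen-binding glycoprotein, stood at 2452 ± 189 TPM and 3205, 3629 and 3303 CPM. On the TPM scale its range overlapped those of Col3a1 and Fn1, given above, and these 3 cannot be ordered. Serpinh1, a collagen chaperone, followed at 1294 ± 295 TPM, and its level was highest in replicate 1 (1392, 1168 and 887 CPM). Among matrix families Fbn1 held nearly all of fibrillin, with 0.00578% left to Fbn2, which had at most 3 counts in a sample. Lama5 held 78.2% ± 3.18 of the laminin alpha chains and Lama2, the chain of mature muscle, 21.5% ± 3.10. Thbs1 took 88.7% ± 1.19 of the thrombospondins and Lox 59.0% ± 3.76 of the lysyl oxidases. Timp2 and Timp1 held 53.9% ± 4.40 and 35.3% ± 3.26 of the metalloprotease inhibitors. Col6a1 led collagen VI per kilobase with 54.8% ± 4.83, while Col6a3 had the most reads. Eln, encoding elastin, was close to absent at 0.575 ± 0.0594 CPM. In 24 of the 44 expressed matrix genes (54.5%) replicate 2 was the highest sample, against 37.8% of all expressed genes.

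The 15 mitochondrially encoded genes of the list held 4.70%, 3.90% and 4.93% of counts. mt-Co1 stood at 24372 ± 1606 TPM, mt-Co2 at 20860 ± 4347, mt-Co3 at 14587 ± 2525 and mt-Atp6 at 13707 ± 1335 TPM. Neither the first pair nor the second can be ordered, since mt-Co2 was above mt-Co1 in replicate 3 and mt-Atp6 above mt-Co3 in replicate 2. These values also depend on how reads were split with nuclear copies of the mitochondrial genome. In mt-Co1 51.1% of windows occur elsewhere, and in mt-Co2, mt-Co3 and mt-Atp6 at least 99.5% do. The partners are pseudogenes that lie together on chromosome 1 (GRCm38): Gm28437 at 24613189 to 24613971, Gm10925 at 24613974 to 24614651, Gm28661 at 24614885 to 24615565 and Gm29216 at 24615706 to 24616197. Gm29216 had the highest per-kilobase level of any gene, 27794 TPM. Gm28661 was given 2569, 295 and 669 CPM, and mt-Co2 had 4388, 4693 and 6526 CPM. Their sums were 6957, 4989 and 7195 CPM, with a coefficient of variation (CV) of 19% against 104% for the pseudogene alone. Gm10925 took 60.6%, 34.3% and 48.2% of its sum with mt-Atp6. In the sums of both pairs replicate 2 was lowest.

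Nuclear oxidative phosphorylation genes were expressed in full, 30 of 30 at 1 CPM or more, and held 0.592% ± 0.0564 of counts. Atp5b and Atp5a1, subunits of the ATP synthase, stood at 968 ± 34.8 and 603 ± 116 TPM, Cox4i1 at 462 ± 11 TPM and Uqcrh at 352 ± 24.5 TPM. Atp5a1 had 558, 672 and 836 CPM. In 27 of the 30 genes (90%) replicate 3 was the highest, against 25.2% of all expressed genes.

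Cell-cycle genes were low but all detected. Of 22 replication genes 22 reached 1 CPM, together 0.0453% ± 0.00817 of counts, and of 24 mitosis genes 24, together 0.0823% ± 0.0189. Top2a, the topoisomerase of dividing cells, had 168, 124 and 89.7 CPM (38.8 ± 12.2 TPM). Cdc20, an activator of the anaphase-promoting complex, stood at 36.8 ± 6.23 TPM, Ube2c at 33.3 ± 9.17 and the cyclin Ccnb2 at 31.2 ± 2.78 TPM. Ube2c overlaps Tnnc2 and shares 16% of its windows, mostly with that gene. Rrm2 led replication with 73.1 ± 4.31 TPM, followed by Pcna, the polymerase clamp, at 41.7 ± 8.10 TPM. On the side of cell-cycle exit, Cdkn1a (p21), the kinase inhibitor that rises as myoblasts withdraw, had 494, 575 and 719 CPM. It held 86.1% ± 2.06 of the p21 family on the per-kilobase scale. Cdkn2a and Cdkn2b had no count in any control sample. Ccnd3, the D-type cyclin kept in myotubes, held 62.3% ± 4.76 and Ccnd1 33.8% ± 4.24. Rb1 held 72.7% ± 2.53 of the pocket proteins.

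All 24 mitosis genes were highest in replicate 1 and lowest in replicate 3, an order found in 20.7% of all 13660 expressed genes. The list total was 1010, 827 and 632 CPM. Replication genes shared this order in 17 of 22, with totals of 544, 426 and 388 CPM. Sarcomere genes were highest in replicate 3 in 35 of 46, calcium handling genes in 15 of 17 and muscle energy genes in 14 of 16, against 25.2% of all expressed genes. This was not the reverse of the mitosis order. Replicate 2 was the lowest sample in 27 of the 46 sarcomere genes and 15 of the 17 calcium handling genes. Over all 13660 expressed genes it was lowest in 3788. Replicate 1 was lowest in 8 of the 16 energy genes, beside 4316 of all 13660 expressed genes. The energy list summed to 3619, 4134 and 5206 CPM. Cdkn1a was likewise highest in replicate 3. Genes within a list are not independent, and each pattern compares 3 libraries.

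**Figure D3:**
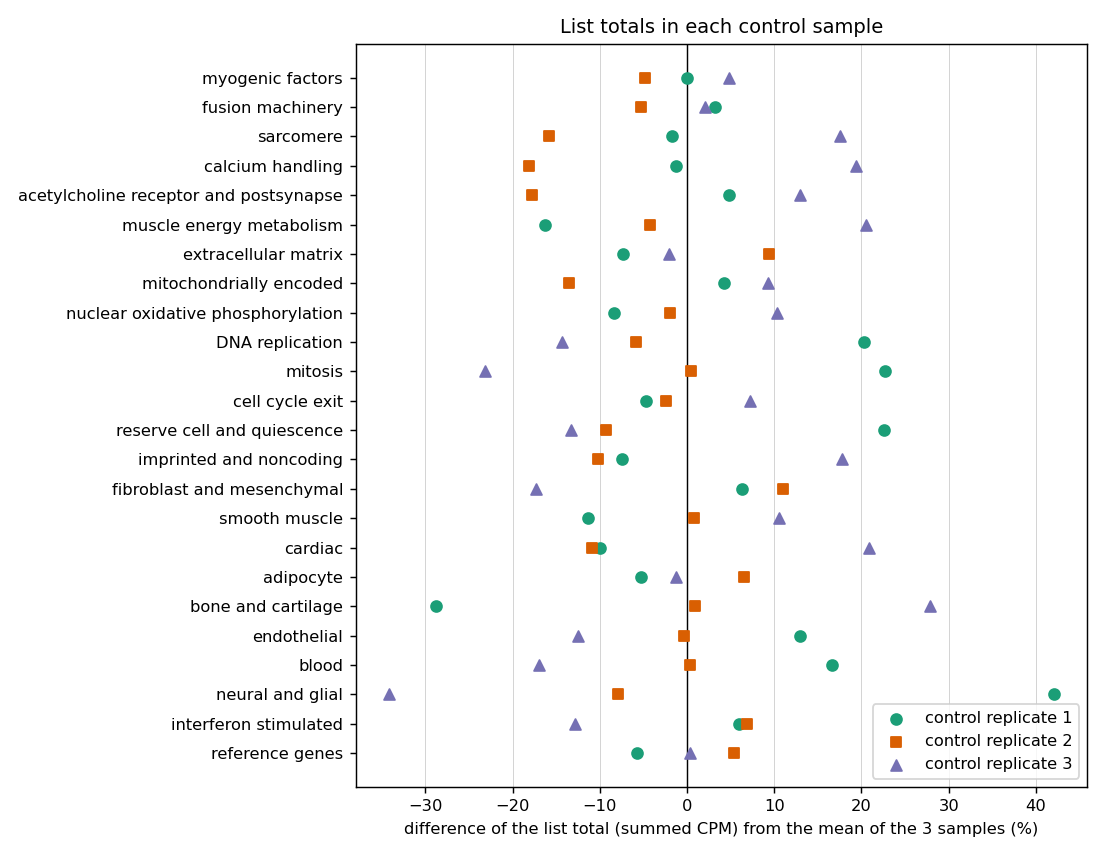
Difference of each list's summed CPM from the mean of the 3 control samples, in percent, for 24 lists, with a symbol per replicate. Replicate 1 (circles) lies right for replication, mitosis and reserve-cell genes (the last through Itga7), and replicate 3 (triangles) lies right for sarcomere, calcium and energy genes.

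Reserve-cell and quiescence genes summed to 4212, 3120 and 2981 CPM, with 22 of 24 at 1 CPM or more. Itga7, the laminin-binding integrin subunit of muscle, gave the largest part of the total, with 2554, 1470 and 1560 CPM and 632 ± 205 TPM, and it is not confined to reserve cells. Without Itga7 the list summed to 1659, 1650 and 1421 CPM. Sdc4, a syndecan of satellite cells, was at 119 ± 30.4 TPM and went the other way (78.9, 117 and 135 CPM). Notch3 held 56.6% ± 0.186 of the Notch receptors and Notch2 34.0% ± 1.18. Notch3 had 379, 323 and 265 CPM. The Notch target genes Hes1 and Heyl reached 25.9 ± 4.85 and 36.5 ± 13.3 TPM, whereas Hey2 had at most 3 counts and Calcr, a marker of quiescent satellite cells in muscle, had none. Cd34 stood at 102 ± 22.2 CPM. Id3 and Id1 held 45.0% ± 4.03 and 38.5% ± 6.43 of the Id family, within their spread of each other, and Id4 had at most 3 counts.

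Among the 15 listed imprinted and noncoding genes H19 stood far above Malat1 (810.4 ± 156 TPM), Peg3 (164 ± 13.7 TPM) and Igf2 (149 ± 65.2 TPM). Outside this list, the noncoding RNA Gm42418 reached 1896 ± 80.5 TPM and Xist 427 ± 72.1 TPM, or 2789 ± 462 CPM. Igf2, the growth factor gene that neighbours H19, had 170.0, 317 and 448 CPM. Gm49394, a gene model over the same locus with which Igf2 shares most of its 62.1% of shared windows, had 14.4, 49.8 and 92.4 CPM, in the same order. Their sum varied with a CV of 48.9%. The listed noncoding RNAs of another imprinted cluster were almost silent. Meg3 stood at 0.330 ± 0.0585 CPM and Rian at 1.07 ± 0.528 CPM, and Mirg had up to 2 counts in a sample.

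Of the 83 genes on lists of other cell types 28 reached 1 CPM. The share was 54.4% over all protein-coding genes. It was 25.9% over all genes counted, which include pseudogenes and noncoding genes. Mesenchymal genes (8 of 12) and smooth muscle genes (6 of 8) were mostly expressed. Of the blood list 1 of 10 reached 1 CPM, of the endothelial list 2 of 9, of the neural and glial list 2 of 11, and of the adipocyte, cardiac and bone lists 3 each. Defining genes at 0 in all control samples were Adipoq and Ucp1 (fat), Hand1, Hand2 and Myl7 (heart) and Ibsp (bone). In the blood list Adgre1, Cd3e, Hbb-bs and Lyz2 were among the genes with at most 3 counts. Exceptions were Gata4, a factor of heart and gut, at 32.6 ± 3.68 CPM, Spp1 (osteopontin) at 247, 355 and 505 CPM, and Lpl at 47.6 ± 1.33 CPM. In the mesenchymal list S100a4 (2814 ± 454 TPM) and Ly6a (796 ± 254 TPM) were abundant, while Tcf21 and Twist1 had at most 2 counts. For S100a4 47.4% of windows are shared with Gm42674. Acta2, the smooth muscle actin, had 1541, 2101 and 2504 CPM, whereas Myh11, the myosin of mature smooth muscle, had 0.548 ± 0.0701 CPM.

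Among the Hox genes, expression lay in the Hoxa and Hoxc clusters, in which 8 of 11 and 8 of 9 genes reached 1 CPM. These homeobox genes keep the position along the body axis at which a cell arose. No Hoxb or Hoxd gene did, of 10 and 9, and all 9 Hoxd genes had at most 3 counts in each sample. Hoxc10 was highest, with 41.8, 57.7 and 49.7 CPM, followed per kilobase by Hoxc11, Hoxa10 and Hoxc6. The posterior Hoxc13 was on as well, with 9.32, 12.0 and 11.1 CPM. Hoxc12, between Hoxc11 and Hoxc13 in number, stayed at 0.410 ± 0.0315 CPM.

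**Figure D4:**
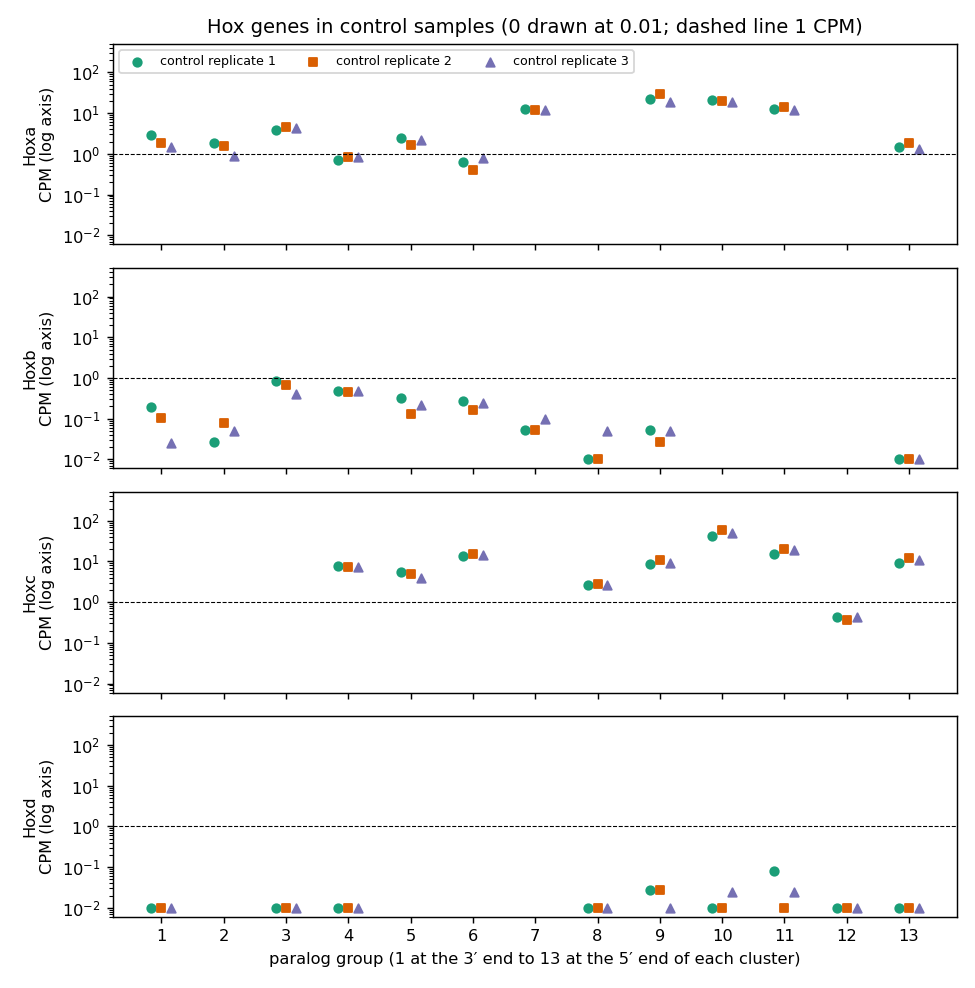
CPM of the 39 Hox genes in each control sample on log axes, a panel per cluster, by paralog group. Hoxa and Hoxc genes lie mostly above the dashed line at 1 CPM, while Hoxb genes lie below it and Hoxd genes at or near 0.

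Other classes of genes were off almost entirely. Keratin-associated protein genes had 0 of 57 at 1 CPM, bitter taste receptors 0 of 35 and beta defensins 0 of 42. Olfactory receptors had 53 of 1135 genes past this level, together 0.0250% of counts. Of segments of immunoglobulin and T cell receptor genes 440 of 470 had no count. Ribosomal protein genes were the opposite case, with 79 of 82 expressed and 2.11% of counts.

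Replicates were close for most genes. The median CV of the 13660 expressed genes was 10.5%, against 3.21% from counting alone, and 10% of genes had more than 25.8%. edgeR's common biological coefficient of variation was 16.7% in the control samples, 18.9% in the si mH2A1.1 group and 18% in the si mH2A1.2 group. Between replicates 1 and 2, 236 expressed genes differed more than 2-fold, between 1 and 3 281 and between 2 and 3 131. The median CV was 15.6% for genes of 1 to 10 CPM, 9.19% for 10 to 100, 8.61% for 100 to 1000, and 14% for the 97 genes above that. The median CV was 21.9% in the sarcomere list, 19.4% in the matrix list and 18.2% in the mitochondrially encoded list. Reference genes had 8.34%.

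Genes with the widest spread at 10 CPM or more were highest in replicate 1 in 8 of 10 cases, against 36.9% of all expressed genes. Stc1, encoding the hormone stanniocalcin, had 41.2, 9.37 and 2.01 CPM (CV 119%), and Avil, an actin-regulating protein, 49.7, 11.3 and 6.06 CPM (CV 107%). Cdsn had 74.3, 27.0 and 15.2 CPM, Car6 20.7, 8.84 and 5.01 CPM, Col15a1 58.4, 14.4 and 19.4 CPM and Atp2a3, a calcium pump of nonmuscle cells, 37.2, 11.1 and 12.8 CPM. The pseudogenes Gm28661 and Gm28437 were also highest there, and their levels depend on how reads were split with mt-Co2 and mt-Co3. Gm49394 and Gm9844 were highest in replicate 3 instead, Gm9844 with 7.47, 15.2 and 35.0 CPM. The steadiest genes were Cops6, a COP9 signalosome subunit, with 69.8 CPM in each sample, and then Ofd1, Phc3, Ergic2 and Fam135a, with a CV of at most 0.204%.

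**Figure D5:**
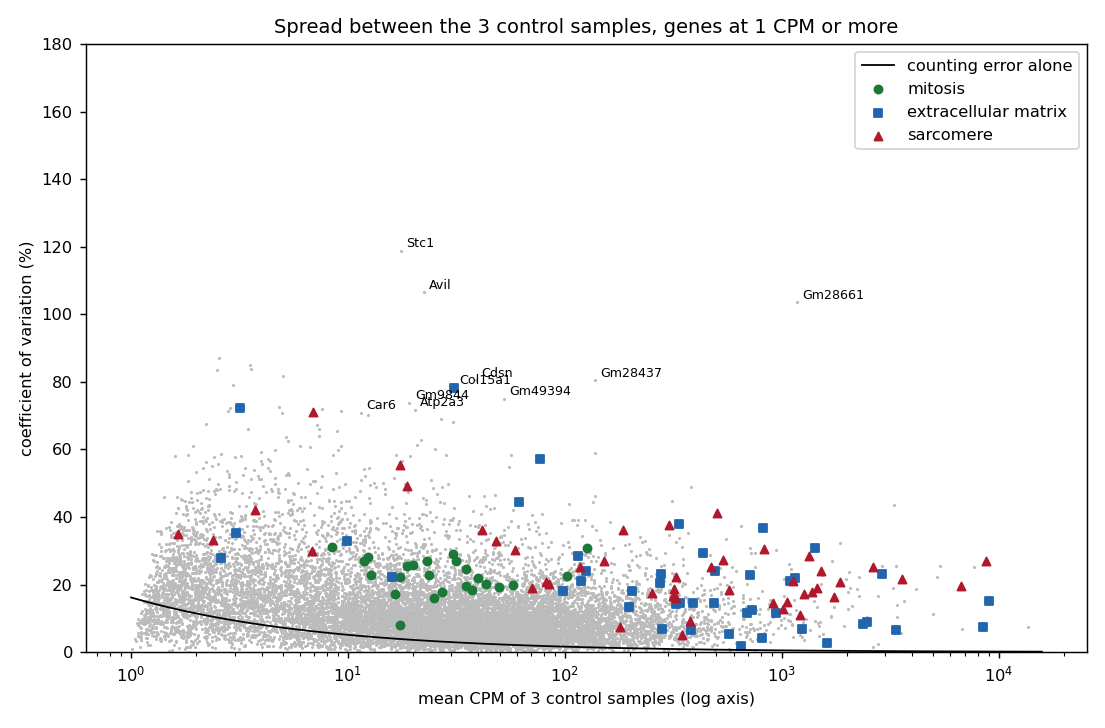
Coefficient of variation (%) of each gene at 1 CPM or more against its mean CPM (log axis) over the 3 control samples, with the value expected from counting alone as a line and 3 lists in colour. Most genes lie above the line, and Stc1, Avil and Gm28661 reach over 100%.

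Against this baseline the knockdowns were compared for the listed genes. H2afy (chr13:56073619-56136361, minus strand), which encodes both macroH2A1 isoforms, had 57.0, 62.5 and 58.7 CPM in the controls, 40.3, 30.1 and 31.8 CPM after si mH2A1.1, and 45.9, 46.9 and 42.2 CPM with si mH2A1.2. No knockdown sample reached the lowest control, and the gene-level count cannot separate the isoforms. The change in log2 was -0.85 ± 0.11 (SE) for si mH2A1.1, with an adjusted p of 0.00331 in edgeR's quasi-likelihood test, and -0.39 ± 0.11 for si mH2A1.2, with an adjusted p of 0.108. H2afy2, the gene of macroH2A2, stood at 4.83 ± 1.56 CPM in the controls, and H2afy held 80.0% ± 4.98 of the pair per kilobase.

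Both comparisons share the control samples. With si mH2A1.1, 25 of 412 tested list members rose and 8 fell in edgeR's quasi-likelihood test at a Benjamini-Hochberg adjusted p below 0.01 and an absolute log2 change of at least 0.8. That is 8.01% of the tested members, beside 1.8% of all 19545 genes tested. The lists were chosen with earlier results of these data known, so the difference between these shares is not a test of the lists. Of the 25 members that rose, 16 were among the 21 tested interferon-stimulated genes, whose list median was 2.75 in log2 against -0.01 over all tested genes. Their summed level was 175, 176 and 144 CPM in the controls and 646, 390.1 and 1194 CPM with si mH2A1.1. In the controls 3 of the 22 (Ifnb1, Oas1a and Oas1g) had at most 3 counts. Oas1a then rose at least 242-fold and Oas1g at least 71.2-fold over the level of 3 counts per library, although 57.6% of the windows in Oas1a and 45.7% of those in Oas1g also occur in another gene, mostly in each other. Oas2, another sensor of double-stranded RNA, rose by 9.05 ± 0.92, Usp18 by 5.63 ± 0.76 and Ckmt2, the mitochondrial creatine kinase, by 5.23 ± 0.34 in log2. Oasl2, Ifit3, Isg15, Ifit1 and Mx2 rose by between 3.56 and 3.98. Replicate 3 of si mH2A1.1 had the highest interferon total, and without it the log2 changes of these 5 were between 2.78 and 3.25, that of Oas2 8.24 and that of Usp18 4.90. Ckmt2 went from 1.60, 0.694 and 0.745 CPM in the controls to 39.1 ± 6.74 CPM. Cd68, a macrophage gene, also rose, by 1.62 ± 0.25, and the blood list summed to 19, 9.96 and 15.5 CPM against 7.04, 6.06 and 5.01 CPM in the controls. A total outside the control range was not particular to this list: the adipocyte and endothelial totals also lay above it, and the cardiac and Hox totals below it. The part of Cd68 in the other changes was not tested. In the matrix list 8 of 45 tested genes fell, among them Col11a1, a fibrillar collagen chain, by 3.51 ± 0.36, and its total was 27192 ± 5492 CPM, below each control sample. Replication and mitosis genes had higher fitted means in 22 of 22 and 24 of 24, with median log2 changes of 0.92 and 0.71, but edgeR called 0 in both lists. At an unadjusted p below 0.05 in edgeR's test there were 19 and 21, and DESeq2 called 5 and 4. Over all genes DESeq2 called 992, and the share of all genes at that unadjusted p was not computed. These counts therefore do not show how far both lists exceed all genes. The replication list summed to 1019, 471 and 795 CPM and the mitosis list to 1922, 942 and 1312 CPM, and in both only replicate 2 lay within the range of the controls. Leaving out a control sample reduced the 33 calls to 9 (without replicate 1), 3 (without replicate 2) and 4 (without replicate 3), and leaving out si mH2A1.1 replicate 1 or 3 to 14 or 13. With the replicate number as a block 64 members were called.

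With si mH2A1.2, 1 list member rose and 3 fell, 0.971% of the 412 tested beside 0.179% of all 19545 genes. The limit set by the choice of lists holds for these shares too. Fmod, encoding the collagen-binding fibromodulin, rose from 1.76, 5.82 and 1.94 CPM to 158, 72.3 and 33.2 CPM, a log2 change of 4.81 ± 0.62. Pvalb fell by 2.89 ± 0.33 on the log2 scale, Myf6 by 1.64 ± 0.17 and Actn2 by 1.25 ± 0.14. Myf6 had 4.31, 3.47 and 3.23 CPM in the controls and 1.24, 1.17 and 1.08 CPM with this siRNA. Samples of the same replicate number deviated together in this comparison, and with the replicate number as a block 10 members were called. The matrix total was 84976, 73759 and 63744 CPM, above each control sample, with 1 of 45 tested members called. Fitted means were higher in 38 of the 45, with a median log2 change of 0.65. At an unadjusted p below 0.05 in edgeR's test there were 26, and DESeq2 called 10. Over all genes DESeq2 called 370, and the share of all genes at that unadjusted p was not computed here either. Without any 1 of the 6 libraries compared, at most 1 member was called.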

How the data were processed

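Poly-A RNA of C2C12 cells was sequenced as single reads of 50 bp and quantified by the authors with Salmon on GRCm38 (mm10); the annotation release is not given in the sources used here. The deposited tables hold estimated counts per gene, written as whole numbers, and the same counts divided by a size factor per sample (a normalised signal, used only to check those factors). Annotation of 52762 of 52780 gene IDs was taken from GENCODE. Where a symbol had more than 1 ID, the one with most counts was used.

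From the counts, CPM of the library total and TPM over merged exon length were computed here. A gene was expressed at 1 CPM or more in all 3 controls, and at the floor with at most 3 counts in each. The level of 3 counts covers counting error only. Shared 50-base windows were counted between transcripts. Contrasts used edgeR 4.0.16 (R 4.3.3): TMM, filterByExpr (19545 genes), all 9 samples in 1 model without a replicate block, quasi-likelihood test, Benjamini-Hochberg adjustment over all genes tested. The script was tested on simulated data. DESeq2 1.42.0 and other settings were alternatives. Deviations of same-numbered control and si mH2A1.2 samples correlated with r of 0.331, 0.291 and 0.196, so these numbers were read as pairs from the data. The main model ignored this pairing, and the fold changes, errors and calls given are those without it. A block for the replicate number was run as an alternative. The labels do not state what a number marks. Column names of the deposited counts run in sequence within each number, from the control to si mH2A1.1 to si mH2A1.2.

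The members and gene lists were chosen with earlier results of these data known. Named genes were the 5 markers, H2afy and H2afy2, up to 4 highest per list and those at the floor, the first and second paralogs, the 10 highest by CPM and by TPM, the 10 largest and 5 smallest CV at 10 CPM or more, and up to 10 called members per contrast. Others, such as Myf5, Mymx, Tcap, Musk, Heyl, Cd34, Eln, Meg3, Hoxc13, Cd68 and the lower paralogs, were named after their values were seen. Some listed genes are not reported here.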

Additional observations from a re-analysis of the deposited data

How the results depend on the processing

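Levels depended little on the settings tried. Genes at 1 CPM or more numbered 13660, against 10816 at a limit of 5 CPM and 15231 at 0.5 CPM, and families led by 90% or more numbered between 10 and 12. The median CV of 10.5% was 8.88% among genes of 10 CPM or more, 12.2% with more than 10 counts, and 8.41% to 8.81% without 1 replicate, where it rests on 2 samples. List members called for si mH2A1.1 (33) numbered 69 with DESeq2, 63 without the filter on low counts, 18 with only the 2 groups compared, 68 at an adjusted p below 0.05, and 3 to 41 without 1 replicate. For si mH2A1.2 (4) the same settings gave 29, 25, 1, 24 and 0 to 1. With the replicate number as a block the counts of list members were 64 and 10. Over all genes, the 352 and 35 calls became 992 and 370 with DESeq2, 800 and 252 without the filter, 195 and 4 with 2 groups, 1146 and 293 at 0.05, and 795 and 116 with the block. The correlations of same-numbered control and si mH2A1.1 samples were 0.0873, 0.0841 and 0.0976, weaker than those with si mH2A1.2. Between samples of different number in these groups they were all negative, from -0.0739 to -0.0213. Each group's mean was removed first, so positive values at the same number push the others to be negative. Their sign is therefore no separate evidence of pairs. Column names of the deposited counts run in sequence within each number, over a control, a si mH2A1.1 and a si mH2A1.2 sample. These names point to sets that span all 3 groups, but no label states what the sequence marks. The calls of the main model do not take such sets into account. The cause of the moves in the counts of calls was not tested. The fold changes of the 10 si mH2A1.1 and 4 si mH2A1.2 members of largest change kept their direction in every setting run, and 33 of 130 values for si mH2A1.1 and 25 of 52 for si mH2A1.2 lost their call.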
